A study of Mus musculus with 8 samples.

Results

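The Krüppel-like factors described here are 10 genes of one zinc-finger family, Klf2, Klf3, Klf4, Klf5, Klf6, Klf9, Klf10, Klf11, Klf13 and Klf15, measured in mouse hearts after digoxin or its vehicle. They were chosen by name, with earlier results of these data known, and each was read by the probe set annotated to that symbol alone. All 10 were measured, with 1 probe set each, among 22180 genes in all. Hearts came from male wild-type mice labelled C57BL6JRj, called C57BL6/J in the growth protocol, aged 8 to 10 weeks and fed standard chow. The digoxin group, with 5 arrays, received digoxin (Nativelle Adult) at 1 mg/kg into the peritoneum at ZT5. The vehicle group, with 3 arrays, received at the same time the solvent, which held propylene glycol at 40%, ethanol at 10%, sodium phosphate at 0.3% and citric acid at 0.08%. All hearts were taken at ZT9, where ZT0 is lights-on, and their total RNA was read on GeneChip Mouse Gene 2.0 ST arrays of Affymetrix. The study's own description counts 4 vehicle samples, and the remaining one was not analysed here. Digoxin is a cardiac glycoside that inhibits the sodium pump of the plasma membrane. No label ties an array to a named animal, so each p value rests on the spread between samples, which may be technical in part.

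Krüppel-like factors bind GC-rich and CACCC sequences through zinc fingers at their carboxyl end, and differ in the amino-terminal parts that recruit activators or repressors. In the heart KLF15 is known as a regulator of lipid and amino acid use that follows the circadian clock and restrains hypertrophic growth, while KLF2 and KLF4 are known as flow-responsive regulators of the endothelium. KLF9, KLF13, KLF10 and KLF11 belong to a branch that recruits the SIN3 corepressor, and KLF10 and KLF11 were first described as genes induced by TGF-beta.

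The bases before the transcription start are shown for the pair of genes that rose, Klf15 and Klf9. They are also shown for the endothelial pair Klf2 and Klf4, whose mean changes had opposite signs. The sequences are RefSeq's (GRCm38.p6), 250 bases up to the base before an annotated start, in the direction of transcription. The windows are chr6:90462326-90462575 on the plus strand, chr19:23140976-23141225 on the plus strand, chr8:72318812-72319061 on the plus strand and chr4:55532476-55532725 on the minus strand. That of Klf15 belongs to a start inside the annotated span of the gene. Capitals mark the E-box CACGTG, to which CLOCK and BMAL1 bind, the glucocorticoid receptor half-site TGTTCT or its reverse complement AGAACA, and the MEF2 site CTANNNNTAG.
Klf15: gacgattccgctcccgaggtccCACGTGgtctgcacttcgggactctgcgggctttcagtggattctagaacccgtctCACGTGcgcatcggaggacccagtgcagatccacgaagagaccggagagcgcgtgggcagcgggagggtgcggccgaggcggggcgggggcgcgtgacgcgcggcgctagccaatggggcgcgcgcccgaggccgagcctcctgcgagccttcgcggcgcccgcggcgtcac
Klf9: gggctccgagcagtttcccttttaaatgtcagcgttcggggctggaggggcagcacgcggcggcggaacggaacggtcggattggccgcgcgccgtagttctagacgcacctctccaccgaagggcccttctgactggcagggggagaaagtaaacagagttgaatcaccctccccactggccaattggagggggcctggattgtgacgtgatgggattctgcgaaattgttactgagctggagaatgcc
Klf2: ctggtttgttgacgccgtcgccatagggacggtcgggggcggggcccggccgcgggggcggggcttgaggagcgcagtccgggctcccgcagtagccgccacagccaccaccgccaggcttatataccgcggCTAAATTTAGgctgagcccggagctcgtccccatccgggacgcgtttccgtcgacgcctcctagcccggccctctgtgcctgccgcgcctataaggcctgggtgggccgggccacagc
Klf4: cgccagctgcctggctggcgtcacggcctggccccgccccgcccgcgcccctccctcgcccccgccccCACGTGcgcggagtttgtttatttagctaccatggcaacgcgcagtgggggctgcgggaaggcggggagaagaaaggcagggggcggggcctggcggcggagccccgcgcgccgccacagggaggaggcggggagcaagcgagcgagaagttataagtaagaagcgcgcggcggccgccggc
The capitals in Klf15 are 2 E-boxes, whose first bases lie 228 and 172 bases before the start. With the 50 bases after the start, Klf15 held 3 E-boxes. In Klf4 they are 1 E-box at 182 bases before the start, and in Klf2 they are 1 MEF2 site at 118 bases. The Klf9 window held none of the marked motifs. Of the 10 genes, 8 had such a window in the table used, and 4 of these 8 (Klf4, Klf6, Klf11 and Klf15) held an E-box, against 6.02% of 32851 windows of the same length. The MEF2 letters stood in 1 of 8, against 3.2% of all windows, and the glucocorticoid half-site in 0 of 8, against 16.1%. The half-site of the cAMP element, TGACG or CGTCA, stood in 5 of 8, against 17.8% of all windows, and in Klf15 it occurred at 2 places, neither of which overlapped an E-box within the window. The GC box GGGCGG or CCGCCC stood in 7 of 8 (32.7% of all windows) and CACCC or GGGTG in 5 of 8 (52% of all windows). These windows were rich in G and C, between 59.6% in Klf9 and 78.4% in Klf3, where the median of all windows was 52.4%. A match is a description of the letters and not of binding.

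Some arrays stood apart. Vehicle replicate 3 had an interquartile range of 0.216 over all probe sets, against 0.0792 to 0.115 on the other 7 arrays. Digoxin replicate 4 had a mean of 0.921 over 4 lymphocyte markers, against -0.095 to 0.045 on the other digoxin arrays and -0.063 to 0.141 on the vehicle arrays. Atrial markers varied in both groups, with means over 5 genes of -0.537 to 2.167 on the digoxin arrays and 0.346 to 2.721 on the vehicle arrays. None of 9 endothelial, 7 fibroblast, 7 mural, 7 ventricular, 5 atrial, 4 epicardial, 4 lymphocyte, 5 neutrophil or 3 adipocyte markers passed the test, nor did the 1 measured erythroid marker. Of 7 macrophage markers 1 fell, Cx3cr1 (log2 change -0.26, adjusted p = 0.0477), where 0.415% of all genes fell and 0.947% rose. The part of these differences in cell content in the results was not tested. The values are on a log2 scale and were centred within each probe set. They therefore give no level, the presence of cardiac markers could not be checked, and genes are compared only by their differences between arrays. The array numbers of the digoxin samples follow those of the vehicle samples without a break, and an effect of that order cannot be told apart from the treatment.

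In digoxin hearts 2 of the 10 Krüppel-like factors rose, Klf15 and Klf9, and none fell. Among all genes tested in limma, 0.947% rose and 0.415% fell with an adjusted p below 0.05 (1.36% in either direction). In 5 of the 10, Klf15, Klf9, Klf13, Klf4 and Klf11, every digoxin array was above every vehicle array, as in 4.4% of all genes. None lay wholly below, as 3.76% of all genes did, and the groups were apart in either direction in 8.16%. The median log2 change was 0.16 over the 10, against -0.011 over all genes. It ranged from -0.22 for Klf2 to 1.01 for Klf15. The members were chosen with earlier results of these data known, so these shares are not independent of that choice. Other KLF genes are described in a separate list below. In these bulk samples, fewer cells of a type and less RNA per cell cannot be told apart.

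**Figure D1:**
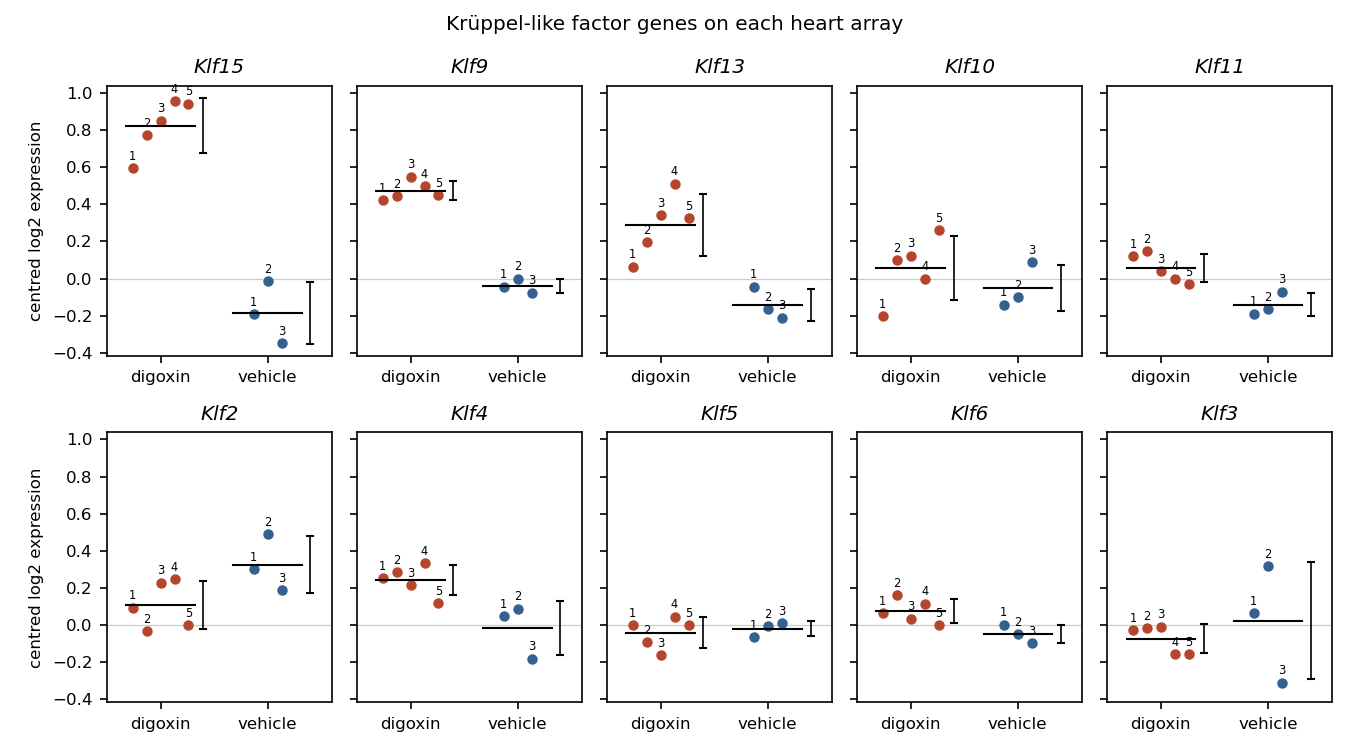
Centred log2 expression (vertical axis) of the 10 Krüppel-like factor genes on each array, with 5 digoxin arrays on the left of each panel and 3 vehicle arrays on the right, numbered by replicate. Horizontal lines are group means and bars are SD. Klf15 and Klf9 show the widest gap between the groups, and in Klf3 the vehicle arrays spread from -0.31 to 0.32.

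Klf15 lies at chr6:90461043-90491803. Its centred log2 values were 0.60, 0.77, 0.85, 0.96 and 0.94 in digoxin hearts (replicates 1 to 5), against -0.19, -0.015 and -0.35 in vehicle hearts (replicates 1 to 3). The lowest digoxin array stood well above the highest vehicle array. The means were 0.82 ± 0.15 (SD, n = 5) with digoxin and -0.18 ± 0.17 (SD, n = 3) with vehicle. The level with digoxin was thus 2.01 times that with vehicle (95% interval 1.72 to 2.35), a log2 change of 1.01 (SE 0.10, adjusted p = 0.0019 in limma). By size of rise Klf15 stood in place 29 of 22180 genes. Its call held in all 8 fits that left out 1 array, with log2 changes of 0.93 (vehicle replicate 3 left out) to 1.09 (vehicle replicate 2 left out). It was 0.89 without vehicle replicate 3 and digoxin replicate 4 together (adjusted p = 0.0083).

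Klf9, at chr19:23141226-23168129, encodes a repressor known as a direct target of glucocorticoid and thyroid hormone receptors. The values were 0.42, 0.44, 0.55, 0.50 and 0.45 in digoxin hearts, against -0.044, 0 and -0.077 in vehicle hearts. Here the groups were tight as well as apart. The SD within groups was 0.048, and 12.6% of all genes had an SD that low or lower. Klf9 averaged 0.47 ± 0.051 (SD, n = 5) with digoxin and -0.040 ± 0.039 (SD, n = 3) with vehicle, a level of 1.43 times that in vehicle hearts (95% interval 1.33 to 1.53). The log2 change of 0.51 (SE 0.045) had an adjusted p of 0.0010 in limma and stood in place 31 by p, ahead of Klf15 in place 45. It lay between 0.49 and 0.53 with any 1 array left out, and all 8 of those fits called it. Without vehicle replicate 3 and digoxin replicate 4 together it was 0.49 (adjusted p = 0.0064).

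The mean rise was larger in Klf15 than in Klf9, a pair chosen with earlier results of these data known. The difference Klf15 minus Klf9 on each array was 0.18, 0.33, 0.30, 0.46 and 0.49 with digoxin, against -0.15, -0.015 and -0.27 with vehicle, so the groups did not overlap. The log2 change of Klf15 exceeded that of Klf9 by 0.495 (exact two-sided permutation p = 0.0179 over 56 assignments, the smallest these arrays allow, and 0.0357 after adjustment over 4 pairs). With quantile normalization the excess was 0.474 and the adjusted p was 0.0714.

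Klf13, at chr7:63886351-63938915, is the closest relative of Klf9 and a regulator of cardiac development in Xenopus. It had values of 0.064, 0.20, 0.34, 0.51 and 0.32 in digoxin hearts, against -0.0445, -0.17 and -0.21 in vehicle hearts. Every digoxin array was above every vehicle array, but digoxin replicate 1 lay close to vehicle replicate 1. The highest value was on digoxin replicate 4, the array with the high lymphocyte mean. Klf13 averaged 0.29 ± 0.17 (SD, n = 5) with digoxin and -0.14 ± 0.086 (SD, n = 3) with vehicle. Its log2 change of 0.43 (SE 0.094, 95% interval 0.21 to 0.64) did not pass (adjusted p = 0.0802 in limma). It passed without digoxin replicate 1 (log2 change 0.48, adjusted p = 0.0432) and with quantile normalization (0.41, adjusted p = 0.0367), while the adjusted p was 0.201 with vehicle replicate 2 left out and 0.117 with both digoxin replicate 4 and vehicle replicate 3 left out.

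Klf9 and Klf13 could not be separated by their response. The difference Klf9 minus Klf13 averaged 0.185 ± 0.138 (SD, n = 5) with digoxin and 0.100 ± 0.088 (SD, n = 3) with vehicle. The change of 0.085 was smaller than the spread between arrays (exact permutation p = 0.375, adjusted p = 0.50 over 4 pairs). Klf13 varied about as much within groups as Klf15 (SD 0.146 and 0.154).

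**Figure D2:**
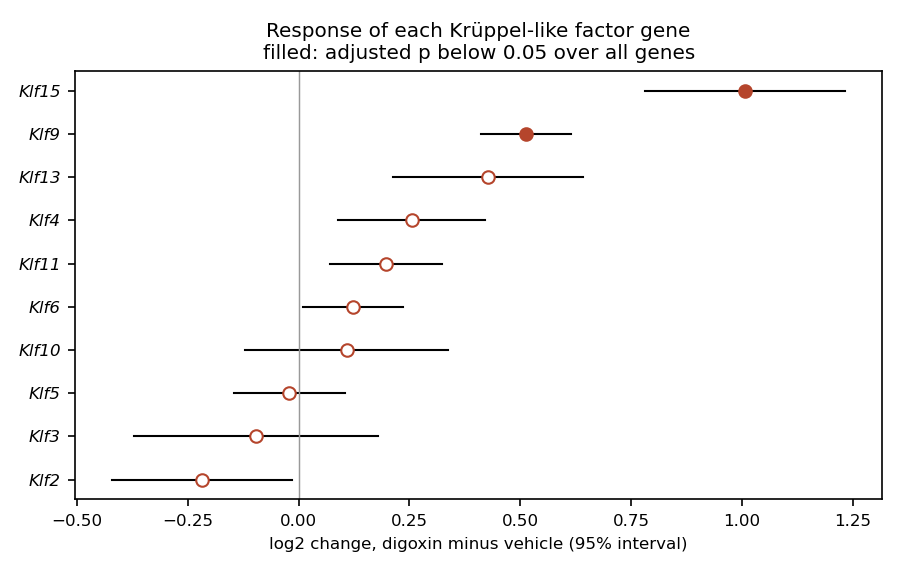
Log2 change (horizontal axis, digoxin minus vehicle) of each of the 10 genes with its 95% interval from limma, ordered by size. Filled points have an adjusted p below 0.05 over all genes. Klf15 (1.01) and Klf9 (0.51) are filled, and the intervals of Klf10, Klf5 and Klf3 include 0.

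Klf11 and Klf10 are the TGF-beta-inducible members. In Klf11 (chr12:24651371-24662782) the values were 0.12, 0.15, 0.041, 0 and -0.030 in digoxin hearts, against -0.19, -0.17 and -0.071 in vehicle hearts. The groups did not overlap, though digoxin replicate 5 and vehicle replicate 3 lay close together. Its log2 change of 0.20 (SE 0.056, 95% interval 0.07 to 0.32) did not pass (adjusted p = 0.17), nor did it in any fit with 1 array left out (lowest adjusted p = 0.113).

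Klf10 (chr15:38291464-38300711) had values of -0.20, 0.10, 0.12, 0 and 0.26 with digoxin, against -0.14, -0.10 and 0.088 with vehicle. The groups overlapped, and the lowest value of all was on digoxin replicate 1. Its log2 change was 0.11 (SE 0.10, 95% interval -0.12 to 0.34, adjusted p = 0.706), and it was 0.057 with digoxin replicate 5 left out and 0.178 with vehicle replicate 3 left out. The difference Klf10 minus Klf11 averaged 0.001 with digoxin and 0.090 with vehicle, and its change of -0.089 was within the spread (exact permutation p = 0.589, adjusted p = 0.589 over 4 pairs). That change lay between -0.162 (digoxin replicate 5 left out) and -0.008 (digoxin replicate 1 left out).

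Klf2 and Klf4, the flow-responsive endothelial members, had mean changes of opposite sign, though neither passed the test. They were paired with earlier results of these data known. Klf2, at chr8:72319062-72321654, had values of 0.094, -0.032, 0.23, 0.25 and 0 in digoxin hearts, against 0.30, 0.49 and 0.19 in vehicle hearts. The digoxin arrays lay lower on average, with replicates 3 and 4 above the lowest vehicle array. Its log2 change of -0.22 (SE 0.089, 95% interval -0.42 to -0.02) did not pass (adjusted p = 0.367 in limma). Leaving out vehicle replicate 2 made it -0.14 and leaving out vehicle replicate 3 made it -0.29, without a call in either fit.

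Klf4, at chr4:55527137-55532475, encodes a factor also known for its part in reprogramming cells to pluripotency. The values were 0.25, 0.28, 0.21, 0.33 and 0.12 with digoxin, against 0.049, 0.088 and -0.18 with vehicle. All 5 digoxin arrays were above the 3 vehicle arrays. The log2 change of 0.26 (SE 0.073, 95% interval 0.09 to 0.42) did not pass either (adjusted p = 0.179), and it was 0.17 without vehicle replicate 3 and 0.15 without both that array and digoxin replicate 4.

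On each array, Klf2 minus Klf4 was -0.160, -0.316, 0.014, -0.084 and -0.118 in digoxin hearts, against 0.253, 0.401 and 0.369 in vehicle hearts. The lowest vehicle array was above the highest digoxin array. The change of -0.474 had an exact two-sided permutation p of 0.0179, the smallest these arrays allow, and an adjusted p of 0.0357 over 4 pairs. It lay between -0.52 and -0.43 whichever array was left out, and with quantile normalization it was -0.493 with an adjusted p of 0.0714. A ratio within an array shows unequal change of the pair and not which of them changed. The 9 endothelial markers had means of -0.158 to 0.020 on the digoxin arrays and -0.128 to 0.065 on the vehicle arrays. Their median log2 change was -0.138. The groups overlapped through vehicle replicate 3 alone (-0.128), while vehicle replicates 1 and 2 (0.065 and 0.054) lay above every digoxin array. The part of endothelial content in the pair difference was not tested.

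**Figure D3:**
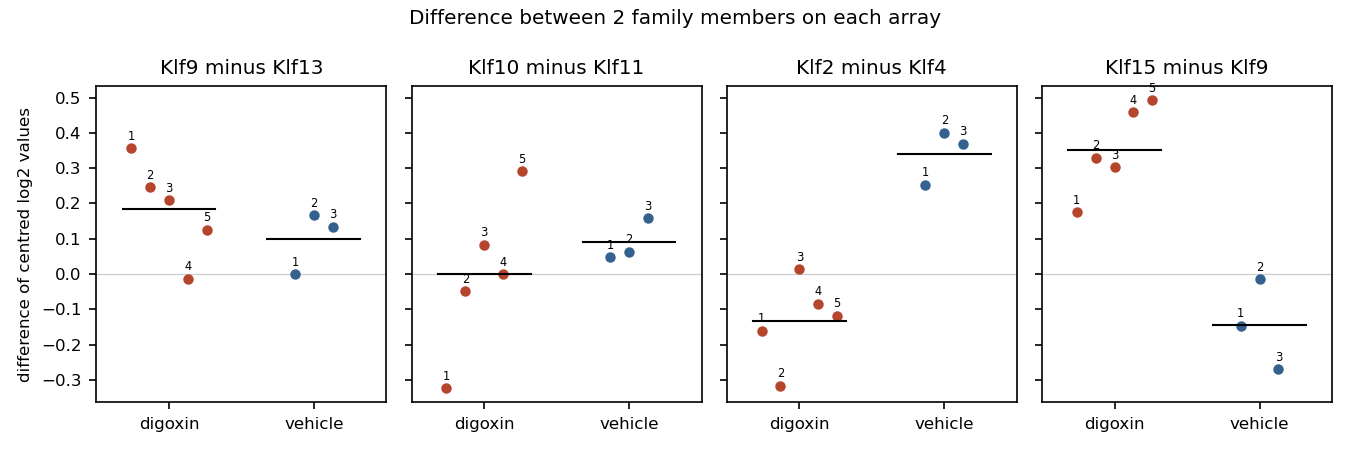
Difference of centred log2 values (vertical axis) between 2 family members on each array, for 5 digoxin arrays (left) and 3 vehicle arrays (right), with lines at the group means. In Klf2 minus Klf4 and in Klf15 minus Klf9 the groups do not overlap, and in the other 2 pairs they do.

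The remaining members are Klf6, Klf5 and Klf3, and in each the groups overlapped. Klf6 (chr13:5861489-5870393), an early-response factor of injured tissue, had values of 0.063, 0.16, 0.034, 0.12 and 0 with digoxin, against 0.0024, -0.048 and -0.096 with vehicle. The groups crossed at digoxin replicate 5 and vehicle replicate 1 alone. Its log2 change was 0.12 (SE 0.050, adjusted p = 0.363).

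Klf5 (chr14:99298691-99313412), known in cardiomyocytes as an activator of Ppara, had digoxin values of -0.161 to 0.045 with a median of 0, and vehicle values of -0.066 to 0.011 with a median of -0.0054. The digoxin range enclosed the vehicle range. Its log2 change was -0.02 (95% interval -0.15 to 0.10, adjusted p = 0.911).

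Klf3 (chr5:64803521-64832901), a repressor that works through CtBP, had values of -0.028, -0.016, -0.0080, -0.16 and -0.16 with digoxin, against 0.064, 0.32 and -0.31 with vehicle. The vehicle arrays enclosed all digoxin arrays. Its SD within groups, 0.192, was wide (91.7% of all genes had an SD that low or lower), and the log2 change of -0.10 (adjusted p = 0.794) became -0.26 when vehicle replicate 3 was left out and 0.05 when vehicle replicate 2 was.

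**Figure D4:**
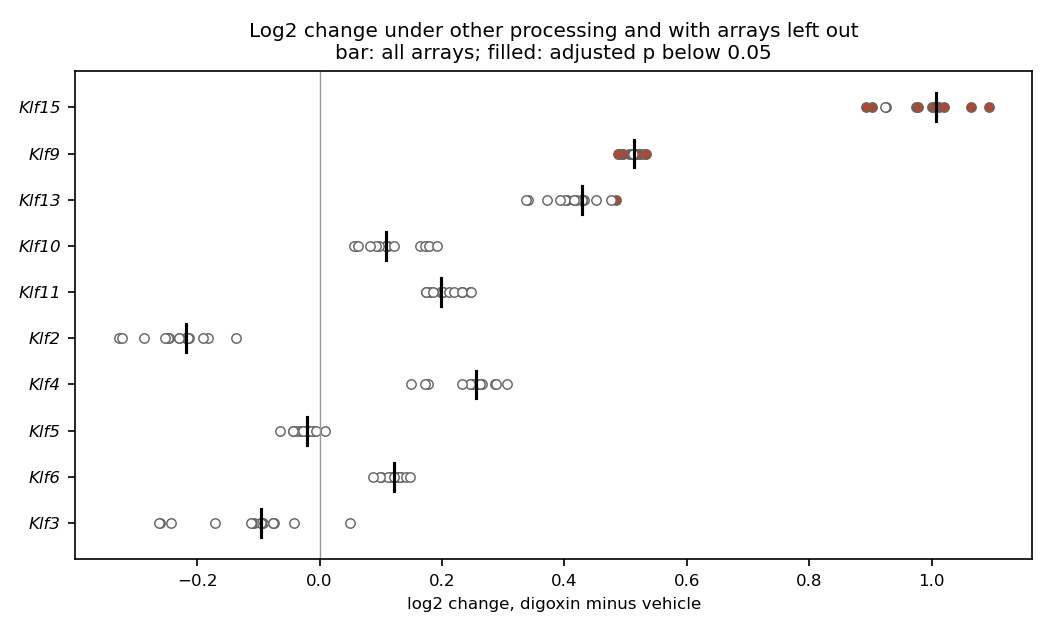
Log2 change (horizontal axis, digoxin minus vehicle) of each of the 10 genes with all arrays (bar) and under each alternative processing or with arrays left out (points, filled where the adjusted p was below 0.05). Klf15 and Klf9 stay apart from 0 throughout, and Klf3 and Klf5 cross it.

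The genes whose profile over the 8 arrays came closest to those of Klf9 and Klf15 were sought by the root-mean-square difference after each gene was centred on its own mean. For Klf9 these were Hipk1, a homeodomain-interacting kinase gene (difference 0.034, log2 change 0.52), Hsd11b1, whose enzyme regenerates active glucocorticoid (0.050, log2 change 0.52), and Chka, the gene of choline kinase alpha (0.055, log2 change 0.48). The probe sets of Chka disagreed, at 0.87 and 0.09, so its likeness rests on their average. For Klf15 they were Rnf144b, a ubiquitin ligase gene (difference 0.088, log2 change 1.02), Fam214a (0.115, log2 change 0.86) and the sulfotransferase gene Sult1a1 (0.127, log2 change 0.79). The differences were larger for Klf15 than for Klf9, but the measure is not scaled to the size of a gene's change or spread. Klf15 had the larger log2 change (1.01 against 0.51) and the larger SD within groups (0.154 against 0.048), so the neighbours of Klf9 cannot be called closer. The measure includes the gap between the groups, so the similar log2 changes of the neighbours follow from how they were chosen. Shared regulation was not tested.

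Of 15 measured genes among the other KLF and SP factors, none passed, and the median log2 change was -0.035. Among all genes 1.36% passed in either direction, so few or no calls are expected in a list this short or in those below. Sp4, a GC-box factor best known in neurons, had the smallest p, with values of 0 to 0.157 in digoxin hearts and a mean of 0.077 ± 0.062 (SD, n = 5), against -0.282 ± 0.182 (SD, n = 3) in vehicle hearts. Its log2 change of 0.36 had an adjusted p of 0.0751, and it passed without vehicle replicate 1 (adjusted p = 0.0337) and with quantile normalization (0.0359). Klf7, a close relative of Klf6, averaged -0.044 ± 0.039 (SD, n = 5) with digoxin and 0.134 ± 0.100 (SD, n = 3) with vehicle. Its log2 change was -0.18 (adjusted p = 0.19), with probe sets at -0.06 and -0.30, and it passed without vehicle replicate 3 (-0.24, adjusted p = 0.037). The groups were apart in 3 of the 15 genes, against 8.16% of all genes. Digoxin arrays lay wholly above vehicle arrays in Sp4 and wholly below in Klf7 and Klf16. Klf16, named after its values were seen, had a log2 change of -0.14 (adjusted p = 0.262).

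Among 14 genes of KLF cofactors and ubiquitin ligases none passed, where 1.36% of all genes did (median log2 change 0.05). The corepressor gene Sin3b stood at -0.19 (adjusted p = 0.343). Fbxw7, whose ubiquitin ligase targets KLF2 and KLF5, stood at -0.20 (adjusted p = 0.398). The MEK5, ERK5 and MEF2 cascade and the CCM complex set Klf2 and Klf4 expression in endothelium. Their 14 genes also had none past the test. Means were higher with digoxin in 7 and lower in 7, with a median log2 change of 0.002 and a range of -0.213 to 0.264. An unadjusted p below 0.05 in limma was found in 7 of the 14, where 12.3% of all genes had one. The groups were apart in 3, against 8.16% of all genes. Mapk7, the gene of ERK5, averaged -0.068 ± 0.044 (SD, n = 5) with digoxin and 0.137 ± 0.126 (SD, n = 3) with vehicle, without overlap (log2 change -0.21, adjusted p = 0.188). Hdac4, a histone deacetylase that binds MEF2, stood at 0.14 (adjusted p = 0.255).

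Of 13 endothelial genes reported downstream of KLF2 and KLF4, 1 rose and none fell, where 0.947% of all genes rose and 0.415% fell. The median log2 change was 0.148. An unadjusted p below 0.05 in limma was found in 7 of the 13, against 12.3% of all genes. The groups were apart in 5, against 8.16% of all genes. The riser was S1pr1, the sphingosine 1-phosphate receptor of endothelium and lymphocytes. Its values were 0.27, 0.45, 0.43, 0.38 and 0.46 in digoxin hearts, against -0.25, -0.25 and -0.71 in vehicle hearts. Every digoxin array was above every vehicle array, and vehicle replicate 3 lay far below the other two. The log2 change was 0.80 (SE 0.11, adjusted p = 0.0088 in limma), and 0.65 without vehicle replicate 3 (adjusted p = 0.0021). Ptgds, the prostaglandin D2 synthase gene, passed without digoxin replicate 4 (0.63, adjusted p = 0.0416) or vehicle replicate 2 (0.69, adjusted p = 0.0488), and Sele, the gene of E-selectin, passed as a fall without vehicle replicate 1 (-0.57, adjusted p = 0.0132), with quantile normalization (-0.45, adjusted p = 0.0489) and with array weights (-0.43, adjusted p = 0.0349). With array weights Thbd, the thrombomodulin gene, also passed as a fall (-0.30, adjusted p = 0.039). These 3 genes were named after their values were seen. With all arrays Thbd stood at -0.20 (adjusted p = 0.277), Ptgds at 0.57 (adjusted p = 0.0572) and Sele at -0.44 (adjusted p = 0.0706). Cyp1b1, also named after its values were seen, stood at 0.53 (adjusted p = 0.0699).

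Beside the rise of Klf15, none of 21 measured amino acid, lipid and channel genes reported downstream of KLF15 passed, where 1.36% of all genes did. An unadjusted p below 0.05 in limma was found in 4 of them, against 12.3% of all genes. Higher means with digoxin were found in 15 of the 21 and in 9852 of all 22180 genes. Their median log2 change was 0.034, with a range of -0.11 to 0.61. Prodh, the proline dehydrogenase gene, averaged 0.059 ± 0.044 (SD, n = 5) with digoxin and -0.171 ± 0.175 (SD, n = 3) with vehicle, a log2 change of 0.23 (adjusted p = 0.233). The fatty acid transporter gene Cd36 stood at 0.12 (adjusted p = 0.34).

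Hypertrophy and fibrosis genes reported as restrained by KLF15 numbered 9, of which 7 had lower means with digoxin, where 12328 of 22180 genes did. None passed, and their median log2 change was -0.237. The members with higher means were Ccn2 (log2 change 0.38, adjusted p = 0.269) and Mef2a (0.08, adjusted p = 0.617). Both were named after their values were seen, and their groups overlapped. The cardiac transcription factor gene Gata4 averaged -0.204 ± 0.129 (SD, n = 5) with digoxin and 0.076 ± 0.038 (SD, n = 3) with vehicle (log2 change -0.28, adjusted p = 0.139). Myocd, the gene of the SRF coactivator myocardin, stood at -0.24 (adjusted p = 0.157). In both genes all digoxin arrays were below all vehicle arrays, as in 3.76% of all genes. In the rest of the list the groups overlapped. Gata4 and Myocd were named for the smallest p in the list, so their separation is not independent of that choice. One member, Nppa, is also an atrial marker, and the atrial list had a median log2 change of -1.305 with overlapping groups. Nppb is a natriuretic peptide gene named after its values were seen. It passed as a fall without vehicle replicate 3 and digoxin replicate 4 together (-0.53, adjusted p = 0.0445). It also passed with array weights (-0.58, adjusted p = 0.0313), which were lowest for vehicle replicate 3 (0.189). Without both arrays the atrial means were 2.721 and 1.777 with vehicle, against -0.537 to 1.291 with digoxin. The endothelial, fibroblast, macrophage and epicardial means were then also wholly higher with vehicle. The part of cell content in these calls was not tested.

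TGF-beta signalling genes gave 12 measured members, none of which passed, where 1.36% of all genes did (median log2 change -0.057). Skil, the gene of the SMAD inhibitor SnoN, stood at -0.27 (adjusted p = 0.255) and the receptor gene Tgfbr1 at 0.29 (adjusted p = 0.462). Their groups overlapped. With array weights Skil passed as a fall (-0.36, adjusted p = 0.0436), and Tgfbr1 lay between 0.108 (vehicle replicate 3 left out) and 0.42 (vehicle replicate 1 left out). Smad7 is an inhibitory SMAD gene named after its values were seen. It passed as a fall without vehicle replicate 3 and digoxin replicate 4 together (-0.51, adjusted p = 0.0119). It also passed with array weights (-0.46, adjusted p = 0.0332). As given for Nppb, several cell type means were apart without both arrays, and the part of cell content was not tested.

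**Figure D5:**
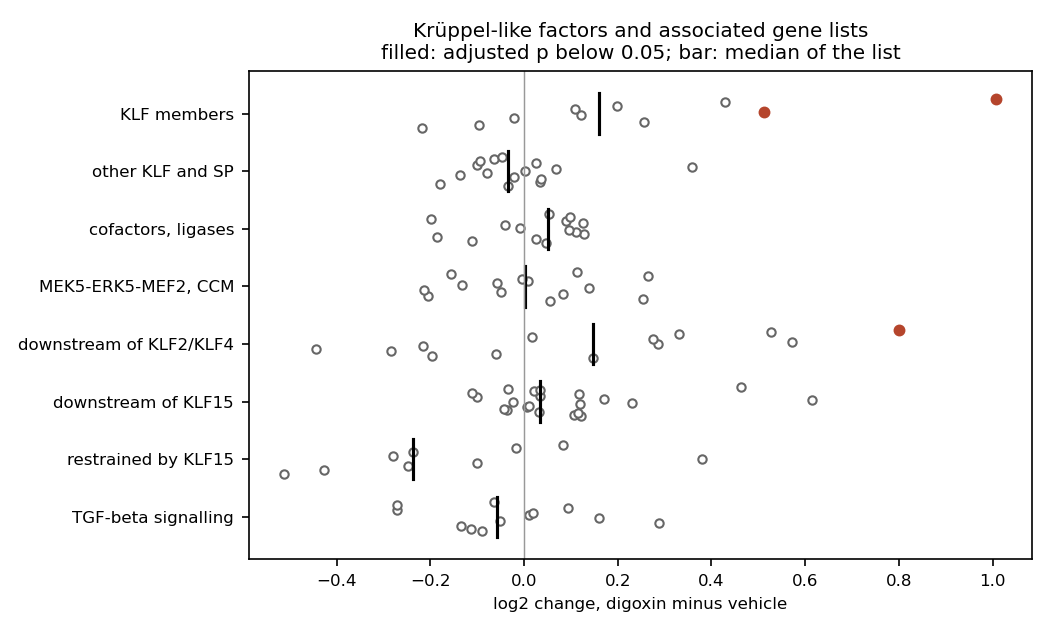
Log2 change (horizontal axis, digoxin minus vehicle) of every measured gene in the Krüppel-like factor list and in 7 associated lists, with 1 point per gene, filled where the adjusted p was below 0.05, and a bar at the median of each list. The filled points are Klf15, Klf9 and S1pr1.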

How the data were processed

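Heart RNA of 5 digoxin and 3 vehicle samples was read on 8 arrays. Per the labels' design text the authors normalised the arrays by Robust Multi-array Average with the Galaxy tools GIANT. The submitters also name limma, in both cases with no version. The deposited values are log2 expression, centred by the authors for each probe set on an unstated value that is taken as constant over arrays; the log base is taken from the method. Of 34351 probe sets, 23521 had 1 symbol in the platform annotation, and their mean per gene gave 22180 genes. No filter on low values was possible.

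Digoxin was compared with vehicle in limma 3.58.1 (R 4.3.3; lmFit, eBayes, two-sided, Benjamini-Hochberg over all genes, threshold 0.05), with 6 residual and 2.75 prior degrees of freedom. Differences between 2 genes on each array were tested by exact permutation. The members, gene lists and pairs were chosen with earlier results of these data known. Named are all 10 members, the genes past the test in each other list (at most 4) or else the 2 of smallest p, and the 3 genes most like each member past the test, leaving out predicted genes, vomeronasal or olfactory receptors and small RNAs. The fit was tested on simulated data. No 2 arrays were duplicates (the smallest SD of a difference between arrays was 0.129). The number of arrays limits the precision. Alternatives covered normalization, probe sets, variance model, array weights, threshold, the replicate number as a block, each array left out, and digoxin replicate 4 with vehicle replicate 3 left out, which an earlier look at these data prompted.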

Additional observations from a re-analysis of the deposited data

Results flagged for a closer look

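In 44 groups of 5 digoxin values (genes, pairs of genes and marker means), 2 had an array far from the others, and chance alone gives about 1 in 20 such groups. The corepressor gene Sin3b stood at -0.26 on digoxin replicate 1, against -0.113 to -0.056 on the other digoxin arrays. The lymphocyte marker mean stood at 0.921 on digoxin replicate 4, against -0.095 to 0.045 on the others. The part of either in the results was not tested.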

How the results depend on the processing

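Klf15 and Klf9 kept their rise and their call under quantile normalization, subtraction of array medians, the most variable probe set, genes with 1 probe set, a robust variance model, array weights, an adjusted p of 0.01 and every array left out, and lost it with the replicate number as a block (0.92, adjusted p = 0.132, and 0.51, adjusted p = 0.19). In that replicate block fit 0 members, 11 genes in all that rose and 1 that fell passed; the same-numbered arrays had correlations of -0.235, -0.05 and 0.043 between their deviations, so the numbers are not taken as pairs, and the block leaves fewer degrees of freedom. Over all genes, 210 rose and 92 fell. With array weights 320 genes fell, and 282 fell when vehicle replicate 3 and digoxin replicate 4 were both left out. At an adjusted p of 0.01, 95 rose and 23 fell. With 1 array left out, 123 to 185 rose and 29 to 189 fell, and 2 or 3 members rose. With 1 array left out Klf5 lay between -0.044 and 0.009 (turned by digoxin replicate 3) and Klf3 between -0.263 and 0.05 (turned by vehicle replicate 2), neither called in any fit. The pair differences lost their adjusted call with quantile normalization (Klf2 minus Klf4 -0.493, Klf15 minus Klf9 0.474), and the cause was not tested. Without vehicle replicate 3 and digoxin replicate 4 they were -0.472 and 0.405, but so few arrays allow no exact permutation p below 0.05. With 1 array left out the pair differences lay between -0.518 and -0.428 and between 0.432 and 0.56, also without a call. There too fewer arrays raise the smallest p, so the missing calls cannot be read as a result about the pairs. A filter on dim genes and a variance trend were not run, since centred values give no level.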
